A study of Homo sapiens with 24 samples.

Results

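The epidermal differentiation complex is a stretch of chromosome 1q21.3 in which genes for the outer envelope of keratinocytes lie between 2 groups of S100 genes. Its members here were all regions that overlapped chr1:151982915-153632039 (GRCh38), the 1.65 Mb from S100A10 to S100A1, in any of the 6 deposited tables of H3K27ac ChIP-seq. They numbered 224 of 171345 regions, of which 52 of 50284 had been tested between shANCO1 and shCTRL in 10A cells and 60 of 44790 in DCIS cells. The authors' annotation placed 32 gene symbols at these regions, and the roles below were read from lists holding 64 genes of the complex, among them CHTOP, which starts just past the interval.

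H3K27ac is acetylation of lysine 27 on histone H3, a mark of active promoters and enhancers, and ChIP-seq maps it by sequencing chromatin fragments recovered with an antibody. Both lines come from human breast epithelium. MCF10A (10A) does not form tumours and stands for tissue before malignancy, while MCFDCIS (DCIS) came from a xenograft of 10A cells given an oncogene and forms lesions that resemble ductal carcinoma in situ. Each line had been infected with lentivirus carrying a hairpin against ANCO1 (shANCO1), the product of ANKRD11, or a control hairpin (shCTRL). The deposited comparisons name the control shGFP. Infected cells had been selected with puromycin. Each of the 4 combinations had 3 H3K27ac libraries and 3 input libraries, 24 in all, and the labels do not say whether these came from separate cultures, so the p-values may measure technical spread only. The study used several hairpins and names hairpin 3 for its H3K27ac analyses, so a change seen here may belong to 1 hairpin. Each deposited value covers a region and whole groups, so library values, depth and replicate spread were not known here, and whether more cells carried the mark or each cell carried more of it cannot be told apart.

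Keratinocytes that leave the basal layer switch on the genes of this complex in sequence. Involucrin (IVL) is laid down early under the membrane and is cross-linked by transglutaminases, the small proline-rich proteins (SPRR) serve as cross-bridges, and loricrin and the late cornified envelope proteins (LCE) follow. Filaggrin, trichohyalin and their fused-type relatives join a calcium-binding S100 domain to long repeats that bundle or scaffold keratin, and the small S100 proteins are calcium sensors, some of them secreted as alarm signals. AP-1, a dimer of Jun and Fos proteins, is a well-known activator of IVL and of SPRR genes.

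The strongest gains in DCIS lay around IVL and the SPRR genes, and AP-1 matches in the DNA around them are shown first, as 30-base windows, because AP-1 is a known activator of these genes. The 2 distant IVL matches and the LINC01527 match lay inside regions up in DCIS. The IVL match nearest the start and the 3 of SPRR2E lay in tested 10A regions and beside, not within, the DCIS ones. The letters TGAGTCA were searched on both strands, which covers TGACTCA. All windows are printed 5′ to 3′ on the plus strand of GRCh38, none overlaps an annotated UTR, and capitals mark the match. Those at IVL, upstream of its start, were at chr1:152905193-152905222, chr1:152906414-152906443 and chr1:152908412-152908441. The match near LINC01527 was at chr1:152954564-152954593, and those in an intron of SPRR2E were at chr1:153100324-153100353, chr1:153100355-153100384 and chr1:153100571-153100600.
IVL upstream, 3336 bp from the TSS: cccaaaaaggaTGAGTCAgccctcttggcc
IVL upstream, 2115 bp from the TSS: ttattatgccgTGAGTCAgagggcgggagg
IVL upstream, 117 bp from the TSS: gatgcctgtggTGAGTCAggaaggggttag
LINC01527: tctgtatgaggTGACTCAcgctaatctttg
SPRR2E intron, site a: gacgtaatttgTGACTCAacataaaaacag
SPRR2E intron, site b: ataggtttgtaTGAGTCAacttttttttct
SPRR2E intron, site c: caggctgggtaTGAGTCAacatttcgatgc

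Windows beside the S100 genes are given for contrast, because the S100A2 and S100A16 regions rose in both lines and the S100A6 side region in DCIS. The window upstream of S100A2 was at chr1:153572937-153572966, the one near S100A6 at chr1:153527157-153527186, and the one over S100A16 at chr1:153610471-153610500, again on the plus strand.
S100A2 upstream: aaaaagaaaagTGACTCAggagagtgggtg
S100A6 side: cacgttttgggTGACTCAgaccctctcttt
S100A16: cctcaataccaTGACTCAacccctgcttgg

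The comparison with input asks which parts of the complex were acetylated in the 4 groups. Among shCTRL cells of 10A, 22 regions covering 14.9 kb were enriched over input, and among shANCO1 cells 35 regions covering 39.7 kb. In DCIS, the same counts were 25 regions covering 28.8 kb and 30 regions covering 42.5 kb. The 4 tables against input list almost only enriched regions (100% of each passed the FDR of 0.05, to 3 digits), so these counts are a map and not a test. Each of the 22 10A shCTRL regions overlapped a shANCO1 region of that line, as did each of the 25 in DCIS, where 94.3% and 71.8% of all shCTRL regions of the genome did. Conversely, 15 of the 35 shANCO1 regions in 10A and 19 of the 30 in DCIS overlapped a shCTRL region (42.9% and 63.3%), close to the 41.7% and 64.6% of all shANCO1 regions. The median enrichment over input was 3.38 on the log2 scale for 10A shANCO1, 3.07 for 10A shCTRL, 4.65 for DCIS shANCO1 and 3.95 for DCIS shCTRL. These tables were made separately, and the number of regions called in each was not tested against the others.

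**Figure D1:**
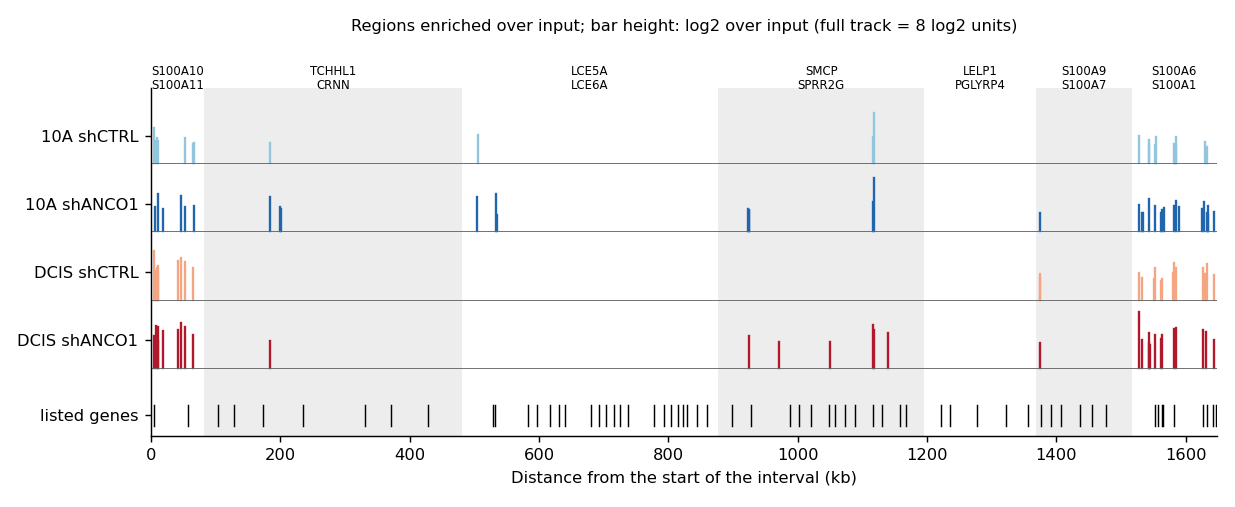
Regions of the complex enriched over input in the 4 immunoprecipitated groups, by distance from the start of the interval in kb. Each bar stands at the middle of a region and its height is the log2 fold over input of the representative window (8 log2 units fill a track), black ticks are the listed genes, and shading alternates between the 7 stretches named above the tracks; the DCIS shCTRL track is empty from S100A11 to S100A9, while the DCIS shANCO1 track has 6 bars from SMCP to SPRR2G.

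The mark sat mainly at the 2 ends of the complex. DCIS shCTRL cells had no enriched region over 1308.5 kb, from the last one past S100A11 to the first at S100A9, which takes in every fused-type, LCE and SPRR gene. The longest gap was 740.2 kb in DCIS shANCO1 cells, 611.3 kb in 10A shCTRL cells and 388.1 kb in 10A shANCO1 cells. From SMCP to SPRR2G, the stretch of 316 kb that holds IVL and the SPRR genes, 6 regions were enriched in DCIS shANCO1 cells and 0 in DCIS shCTRL cells, against 5 and 2 in 10A. The 2 in 10A shCTRL cells lay in the SPRR2E intron, where enrichment reached 6.995 in shCTRL and 7.417 in shANCO1 cells on the log2 scale. In DCIS shANCO1 cells that intron reached 5.82. No region was enriched in any group, or tested between hairpins in either line, from LELP1 to PGLYRP4, which includes LORICRIN.

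Promoters of the S100 genes accounted for nearly all of the marked start sites. An enriched region lay within 1 kb of the TSS of 7 of the 64 genes in 10A shCTRL cells (26.3% of all protein-coding genes had one), 13 in 10A shANCO1 cells (48.3%), 11 in DCIS shCTRL cells (35% of all) and 12 in DCIS shANCO1 cells (36.3%). The 7 in 10A shCTRL cells were S100A10, S100A11, S100A6, S100A2, S100A16, S100A14 and CHTOP. IVL was the envelope gene with a marked start site, in the shANCO1 cells of both lines and in neither shCTRL group. No start site of a fused-type, LCE or SPRR gene was marked in any of the 4 groups. As a check of the cell type, of 10 basal epithelial genes such as KRT5, 6 to 9 had a marked start site in each group (KRT14 in none), against 2 to 4 of 7 luminal genes, 0 or 1 of 5 fibroblast genes and 0 or 1 of 5 leukocyte genes. The hairpin acts on RNA, so acetylation does not check the knockdown itself; the region nearest the ANKRD11 start had a log2 fold change of 0.98 (FDR 0.00325) in 10A and 1.31 (FDR 0.00546) in DCIS.

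The comparison of shANCO1 with shCTRL asks how acetylation of the complex differed after ANCO1 depletion. In 10A, 27 of the 52 tested regions were up at an FDR under 0.05, where 43.6% of all regions of the table were up, and 0 were down, where 0.225% of all were down. In DCIS, 30 of the 60 tested regions were up, where 23.6% of all were, and again 0 were down, where 4.86% of all were. Counted at an unadjusted p under 0.05 from the authors' csaw test, the number of regions down was also 0 in both lines. The up share of the complex was thus near that of the whole table in 10A (51.9%) and above it in DCIS (50% of regions). The neighbouring stretches of chromosome 1, of the same length on either side, had 55.7% and 52.8% up in 10A cells, whereas in DCIS cells 25% and 18.1% were up. The share within the complex therefore stood above both flanks in DCIS and not in 10A; no test of the list was made.

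The sizes of change showed the same contrast. The log2 fold changes in the deposited tables belong to the representative window of each region, with shANCO1 over shCTRL. The median over the complex was 0.79 in 10A, against 0.76 over all regions of that table, and 1.09 in DCIS against 0.52. The flanks had medians of 0.86 and 0.89 in 10A cells, and of 0.46 and 0.37 in DCIS cells. Values ran from -0.02 to 1.59 in 10A and from -1.47 to 3.84 in DCIS, so the DCIS regions spread further both upward and downward. The medians over all regions lay above 0 in both tables, and the scaling that sets 0 was not stated; relative to its table, the median of the complex was 0.03 in 10A and 0.56 in DCIS.

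**Figure D2:**
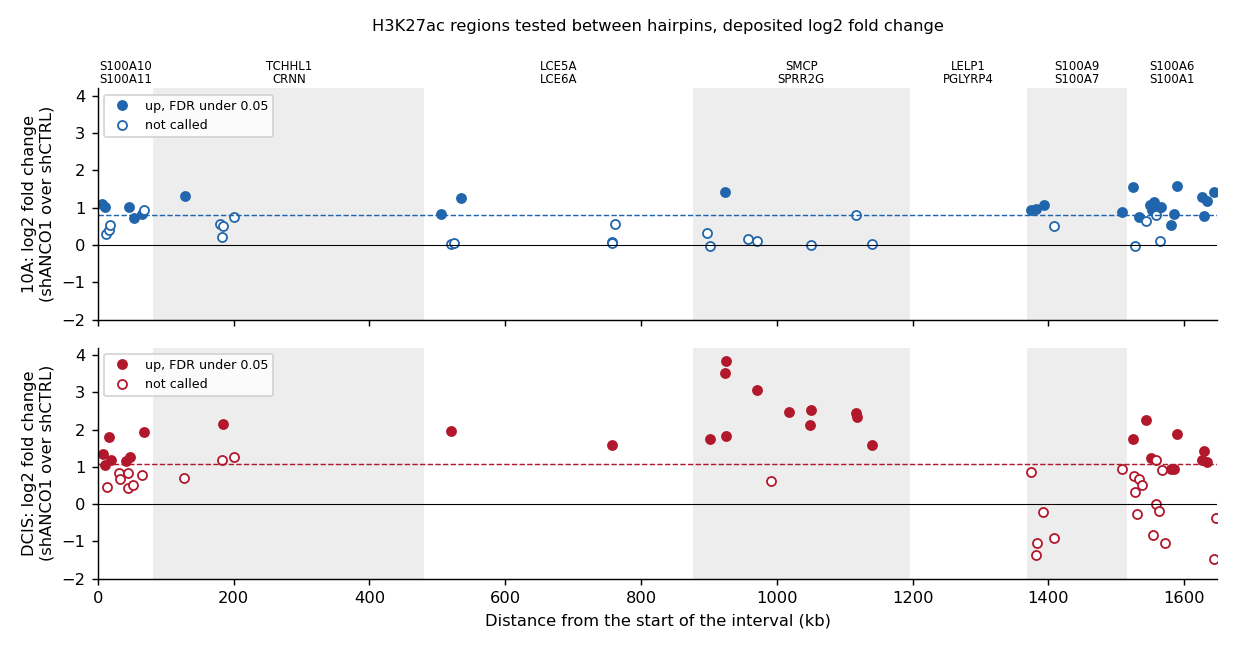
Deposited log2 fold change (shANCO1 over shCTRL) of each tested region of the complex, 10A above and DCIS below, by distance from the start of the interval in kb. Filled points were up at an FDR under 0.05, open points were not called, dashed lines are the medians (0.79 and 1.09), and shading alternates between the 7 stretches; the highest DCIS points lie from SMCP to SPRR2G, where 7 of the 8 10A points are open.

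The complex was divided by gene order into 7 stretches, a division made after the values were seen, and the medians of the lines lay farthest apart from SMCP to SPRR2G. In DCIS, 11 of the 12 regions tested there were up, with a median log2 fold change of 2.39, and in 10A 1 of 8 was up, with a median of 0.14. From S100A9 to S100A7 the picture was the other way round, with 4 of 5 regions up in 10A (median 0.94) and 0 of 6 in DCIS (median -0.55), where 0 also had an unadjusted p under 0.05. The 10A calls at chr1:153364901-153365100, chr1:153375801-153376100 and chr1:153490601-153490900 spanned 1, 2 and 2 windows only. They overlapped no region enriched over input in any group. From S100A6 to S100A1, 14 of 18 regions were up in 10A (median 0.97) and 9 of 22 in DCIS (median 0.83). At S100A10 and S100A11, 5 of 9 were up in 10A and 7 of 14 in DCIS, with medians of 0.83 and 0.95. From TCHHL1 to CRNN 1 of 5 and 1 of 4 were up, and from LCE5A to LCE6A 2 of 7 and 2 of 2, the DCIS pair spanning 1 and 2 windows only. Beside these counts, 43.6% of all regions were up in 10A (median 0.76) and 23.6% in DCIS (median 0.52). Regions may have entered a comparison through the group where they were high. Whether the lines differ in any of these stretches was not tested, because the tables hold no value per library.

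Involucrin, the early cross-linked precursor, had the largest gains of the complex in DCIS and was also up in 10A. In DCIS, the region chr1:152907301-152908300, which ends 246 bp before the IVL start, had a log2 fold change of 3.84 (14.3-fold, FDR 2.87e-09), with 9 of 9 windows up. Next to it, chr1:152905101-152907000 had 3.52 (11.4-fold, FDR 3.21e-08) with 17 of 17 windows up, and chr1:152908701-152908900, just past the start, had 1.83. In 10A a single region, chr1:152904801-152908500, spanned the whole upstream stretch with a log2 fold change of 1.41 (2.65-fold, FDR 0.000279) and 12 of 34 windows up. Against input, IVL upstream DNA was enriched in 10A shANCO1 cells at 3 places (2.87 to 3.16 on the log2 scale). In DCIS shANCO1 cells it was enriched at 1 place (4.44), and in neither shCTRL group was it enriched. The DCIS region with 3.52 overlapped no region enriched over input in either DCIS group. The 3 upstream AP-1 matches printed above all fell in the 10A region, and the 2 distant ones in the DCIS region with 3.52; the DCIS region with the largest value held none.

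Few SPRR genes, whose products cross-bridge the envelope, were represented in DCIS, and those that were had gains. A gene was represented by its region of lowest FDR, from 5 kb before the gene to its end. SPRR3, SPRR1B and SPRR2E, 3 of the 11 listed SPRR genes, had such a region in DCIS. All 3 were up, where 27% of represented protein-coding genes were. A region may have entered the comparison through the group where it was high, so being represented and being up may not be separate observations. The list holds the pseudogene SPRR2C and leaves out SPRR5. SPRR3 had 2.46 (FDR 5.36e-05) at chr1:153000101-153000600, which ends 1147 bp before its start. SPRR1B had 2.12 (FDR 9.89e-04) at its 3′ end, in 3 windows, and a second region 1998 bp past its start, chr1:153033201-153033800, had 2.53 (FDR 1.88e-06) with 5 of 5 windows up. SPRR2E had 2.44 (FDR 1.11e-07) and 2.34 (FDR 6.62e-05) at 2 regions of its intron, chr1:153099601-153100300 and chr1:153100601-153101200. The region at SPRR3 and the one at the SPRR1B 3′ end overlapped no region enriched over input in any of the 4 groups, whereas the one past SPRR1B overlapped one in DCIS shANCO1 cells (3.49).

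None of these SPRR sites was called in 10A. The SPRR2E intron was tested there as 1 region, chr1:153099001-153101300, with a log2 fold change of 0.81 (FDR 0.196) and 0 of 20 windows up. The site past SPRR1B had 0.01 (FDR 0.983), and no region at SPRR3 was tested. The SPRR2E intron was thus acetylated in both 10A groups, whereas in DCIS it was enriched over input in shANCO1 cells alone. The 3 AP-1 matches of this intron lay inside the 10A region and in the gap between the 2 DCIS regions. A region past the end of SPRR4 had 0.61 (FDR 0.266) in DCIS. The 8 listed SPRR genes other than SPRR3, SPRR1B and SPRR2E had no tested region within that reach in either line. A gene with none may have fallen under the authors' filter on windows, which was not stated, and a region may have entered through the group where it was high. SPRR genes resemble each other, and words of 50 bases that occur once in the complex made up 86.6% of the SPRR1B 3′ region; they made up at least 95% of every other tested region. Among genes with no tested region the share of such words varied. The lowest were 61.6% of HRNR, 64.3% of LCE2C, 67.4% of LCE2B, 72.7% of SPRR2B and 80.1% of SPRR2A. Others, such as CRNN, LORICRIN and SPRR4, had 100%. Repeats elsewhere in the genome were not searched, and how the authors treated reads with several matches was not stated.

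**Figure D3:**
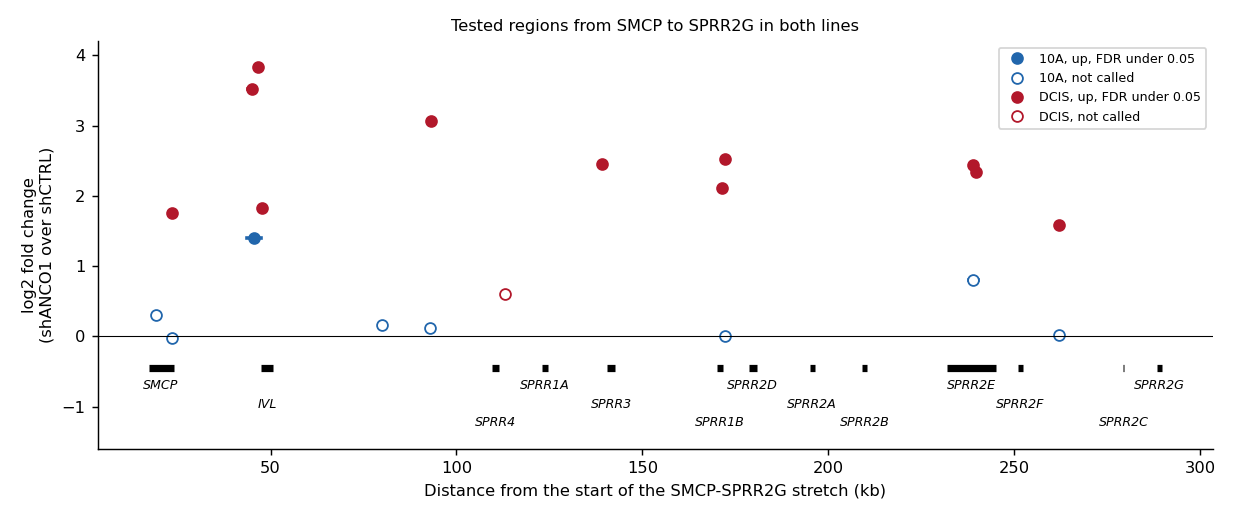
Tested regions from SMCP to SPRR2G, by distance from the start of that stretch in kb, with the deposited log2 fold change (shANCO1 over shCTRL) of each. Filled points were up at an FDR under 0.05, open points were not called, horizontal lines give the width of a region, and black bars are genes; DCIS reaches 3.84 upstream of IVL, and apart from the IVL region (1.41) no 10A point is called.

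Several further sites of the stretch rose in DCIS, and these non-coding places were picked out after their values were seen or by their rank. The region chr1:152953901-152954600, which the authors placed at the lncRNA LINC01527 and which lies past SPRR5, had a log2 fold change of 3.07 (8.40-fold, FDR 4.08e-09) and ranked next after the IVL regions. The overlapping 10A region had 0.12 (FDR 0.819). At SMCP, which encodes a cysteine-rich protein of sperm mitochondria, the 3′ end had 1.75 (FDR 0.00151) in DCIS. The same coordinates had -0.02 in 10A, where the represented region of SMCP had 0.31 (FDR 0.522). No region enriched over input lay at SMCP in any group. The region chr1:153122501-153124000, beyond SPRR2F, had 1.59 (FDR 2.17e-05) with 14 of 14 windows up in DCIS, and 0.02 (FDR 0.969) in 10A.

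The fused-type S100 genes and the LCE genes, which act late in cornification, had few tested regions. Of the 7 fused-type genes, TCHH and RPTN had a tested region in 10A and TCHH alone in DCIS. TCHH, the hair follicle protein trichohyalin, was up in 10A at a coding region (1.31, FDR 0.00193) and had 0.69 (FDR 0.339) in DCIS. No region enriched over input lay at TCHH in any group. RPTN had 0.55 (FDR 0.482) in 10A. FLG, the gene of filaggrin, had no tested region, but a promoter and exon region of its antisense gene FLG-AS1, singled out after its value was seen, had 2.15 (FDR 0.000593) with 11 of 11 windows up in DCIS and 0.52 (FDR 0.232) in 10A. Of the 18 LCE genes LCE5A alone had a tested region, in 10A, with 0.06 (FDR 0.900). A region 2119 bp past the start of CRCT1, a cysteine-rich gene beside the LCE cluster that lay outside the gene window, was up in 10A with 1.26 (FDR 0.000172, 16 of 17 windows) and had no DCIS counterpart.

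S100A10, the partner of annexin A2, and S100A11 mark the first end of the complex, and both were up in both lines. The S100A10 promoter, chr1:151991301-151994900, had a log2 fold change of 1.02 (FDR 9.45e-06) in 10A with 35 of 35 windows up. In DCIS the overlapping promoter region had 1.05 (FDR 0.0210), and the represented region, upstream of the gene, had 1.81 (FDR 0.00583). S100A11 had 0.71 (FDR 0.00163) over its promoter in 10A. In DCIS its promoter had 0.51 (FDR 0.509), with 0 of 48 windows up, and the call came from a region upstream of its farthest annotated start, with 1.94 (FDR 0.00229). Both promoters were enriched over input in all 4 groups, the shCTRL cells included.

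The S100 genes of the other end were called to different extents in the lines, a difference that was not tested. Of the 12 represented genes, 11 were up in 10A, and 4 were up in DCIS. Among protein-coding genes of the genome that had a region, 72.7% were up and 0.291% down in 10A, and 27% up and 4.54% down in DCIS. A lower share up in DCIS was thus also seen over the whole genome. S100A2, a basal epithelial gene, was up in both lines at chr1:153572001-153573700, about 4 kb upstream, with 1.59 (FDR 0.000285, 16 of 16 windows) in 10A, the largest value of that line. The overlapping DCIS region had 1.88 (FDR 0.00158, 12 of 16 windows). Its promoter region had 0.83 (FDR 0.000984) in 10A and 0.93 (FDR 0.00420) in DCIS.

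S100A6, S100A16 and S100A14 were the other 3 of this group that rose in both lines. S100A6, known as calcyclin, had 1.08 (FDR 2.29e-05) in 10A and 1.24 (FDR 0.00325) in DCIS. S100A16, an epithelial S100, had 1.296 (FDR 9.22e-07, 32 of 36 windows) and 1.20 (FDR 0.000235). S100A14, its neighbour, had 0.79 (FDR 0.00185) and 1.42 (FDR 0.00232), in regions that also hold the S100A16 start, and the regions over its own start had 1.19 and 1.12. Beyond S100A6, a region of about 3.5 kb, chr1:153524901-153528400, had 2.27 (FDR 1.21e-07, 33 of 34 windows) in DCIS, and its 10A counterpart had 0.63 (FDR 0.0680). That site was enriched over input in 10A shCTRL cells and not in DCIS shCTRL cells. Another intergenic region, chr1:153506901-153508600, ranked second in 10A with 1.54 (FDR 0.000470), and the overlapping DCIS region had 1.76 (FDR 0.00175). Neither of these overlapped a region enriched over input in any group.

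**Figure D4:**
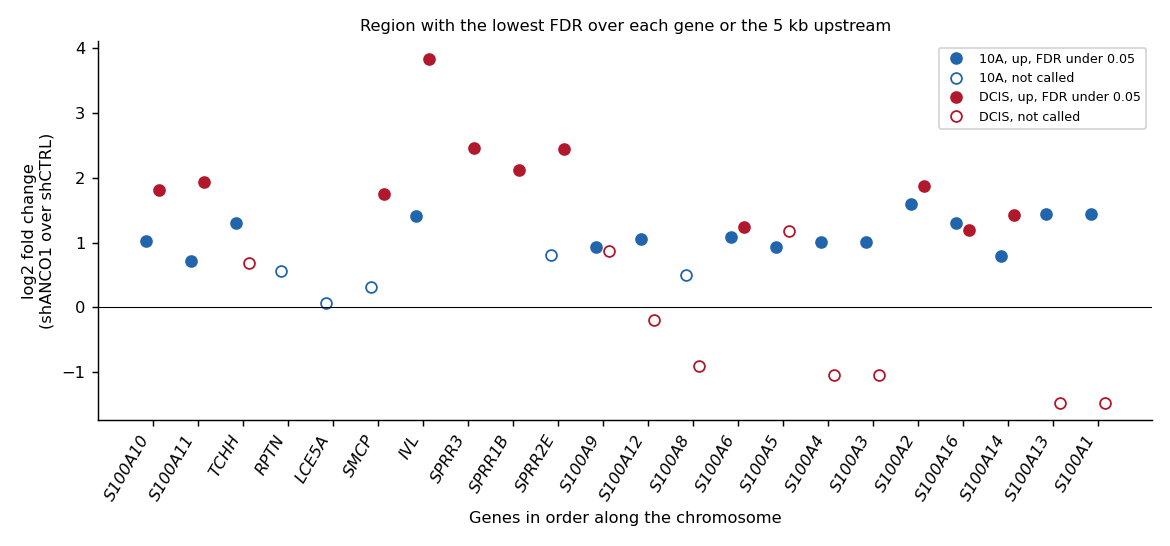
Deposited log2 fold change (shANCO1 over shCTRL) of the region that represents each gene of the complex, genes in order along the chromosome, 10A in blue and DCIS in red. Filled points were up at an FDR under 0.05 and open points were not called; a missing point means that no region was tested, and genes that share a region have the same value (S100A13 and S100A1 in both lines, S100A4 and S100A3 in both lines).

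Apart from S100A8, the remaining S100 genes with a tested region passed the test in 10A only. A difference between the lines was not tested, and fewer genes were up in DCIS over the whole genome too. S100A9, which with S100A8 forms the alarm protein calprotectin, had 0.94 (FDR 0.0113) in 10A and 0.87 (FDR 0.599) in DCIS, a nearly equal size. S100A12, another alarm protein of this family, had 1.06 (FDR 0.0213) in 10A, in 2 windows. S100A5 had 0.93 (FDR 0.000170) in 10A, from a region that also covers the S100A6 promoter, and 1.18 (FDR 0.0734) in DCIS. S100A4, known from cell motility, and S100A3 shared a 10A region with 1.01 (FDR 0.00209). S100A13, which takes part in release of growth factors, and S100A1, a muscle S100, shared a 10A region with 1.43 (FDR 6.37e-05, 7 of 17 windows). In DCIS the overlapping region, chr1:153625801-153629500, had -1.47 (FDR 0.248) and 0 of 36 windows up.

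Several other DCIS values of this end lay below 0 without passing the test. S100A8 had 0.50 (FDR 0.571) in 10A and -0.91 (FDR 0.169) in DCIS. In DCIS, S100A12 had -0.20 (FDR 0.924) and an intergenic region upstream of S100A4 and S100A3, chr1:153554001-153554700, had -1.04 (FDR 0.247), both named after their values were seen. That region has the lowest FDR for S100A4 and S100A3 in DCIS but is another place than their 10A region. The DCIS region that overlaps the 10A one, chr1:153548401-153551000, had 0.90 (FDR 0.328), close to the 1.01 of 10A, and the DCIS region nearest the S100A4 start had -0.19 (FDR 0.944). CHTOP, the neighbour past the interval, had 0.48 (FDR 0.506) at its promoter in 10A and 0.40 (FDR 0.806) in DCIS. Its lowest FDR in DCIS came from the S100A13 region, within 5 kb of its start. S100A7, the psoriasin gene, and its relatives S100A7A and S100A7L2 had no tested region.

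Over all lists, 21 of the 64 genes had a tested region in each line, 15 of them up in 10A, near the 72.7% of all represented protein-coding genes, and 11 in DCIS, against 27%. None was down in either line, where 0.291% and 4.54% were. The 15 calls in 10A came from 13 distinct regions. The median of the represented regions was 1.01 in 10A, against 0.92 for all protein-coding genes, and 1.20 in DCIS against 0.60. S100A2, IVL, the S100 genes and the SPRR genes are ones the study itself brings up from the same cells, so their direction is not independent evidence.

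Setting the lines side by side, 43 of the 52 10A regions overlapped a region tested in DCIS, and the comparisons of the 2 lines share no libraries. Of these pairs 13 were up in both lines, where 16.3% of the 29259 genome-wide pairs were up in both. Another 12 were up in 10A only, 13 in DCIS only and 5 in neither. Of the 29259 genome-wide pairs, 9872 were up in 10A and not called in DCIS. The reverse held for 3753, and 10059 were called in neither line. The 13 shared pairs lay at S100A10 and S100A11 (3), at IVL (1) and from S100A6 to S100A1 (9). In the 6 pairs from SMCP to SPRR2G the DCIS value was higher each time, by 1.58 to 2.95 log2 units. In the 4 pairs from S100A9 to S100A7 the difference, DCIS minus 10A, ran from -2.33 to 0.04. Across the 43 pairs, which share neighbouring chromatin and in part the same DCIS region, the rank correlation of the log2 fold changes was -0.22, against 0.10 over all pairs of the genome.

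**Figure D5:**
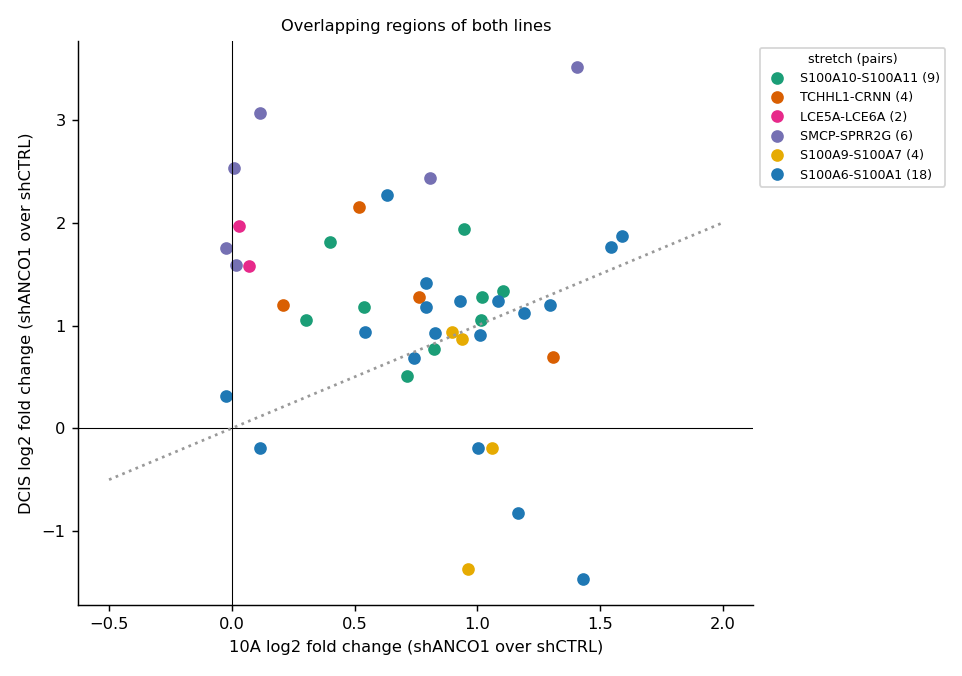
Overlapping regions of the complex in both lines, with the 10A log2 fold change on the x axis and the DCIS log2 fold change on the y axis (both shANCO1 over shCTRL). Each point is 1 of 43 pairs, colours mark the stretch with its number of pairs, and the dotted line is equality; the 6 pairs from SMCP to SPRR2G lie above the line and 3 of the 4 from S100A9 to S100A7 below it.

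The distance of the gains from start sites was compared without a test. Of the 27 regions up in 10A, 14 lay within 1 kb of a protein-coding TSS, against 10 of the 30 in DCIS. Of the regions not called, 2 of 25 in 10A and 10 of 30 in DCIS did. In 10A 10 of the up regions lay outside coding genes, and in DCIS 17 did, against 20 and 18 of those not called. The up regions were wider, with medians of 2100 against 600 bp in 10A and 1700 against 800 bp in DCIS. These places were not counted over all regions of the genome. Regions of the complex that overlapped a region enriched over input in shANCO1 cells but not in shCTRL cells numbered 11 of 27 among those up and 2 of 25 among those not called in 10A. Over all regions of the table these were 35.5% and 12.5%. In DCIS the counts were 9 of 30 and 0 of 30, against 24.5% and 4.16% of all regions. Up regions of the complex that overlapped no enriched region of their line numbered 6 of 27 in 10A and 11 of 30 in DCIS. Among all up regions these were 6554 of 21913 in 10A and 6495 of 10567 in DCIS. Since the shANCO1 libraries enter both comparisons, these are values side by side and not separate evidence.

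The AP-1 letters were present in the 500 bp at the midpoint of 7 of the 27 regions up in 10A and 4 of the 25 not called, and of 6 of the 30 up in DCIS and 4 of the 30 not called. Over the whole tables, 20.3% of the up regions held them in 10A and 25.5% in DCIS. Of all regions not called, 16.8% held them in 10A and 12.5% in DCIS. The letters GGAATG of TEAD factors, likewise on both strands, were in 9 of 27 up and 9 of 25 other regions in 10A. In DCIS they were in 8 of 30 and 11 of 30. Over all regions, 27.3% of those up and 28.5% of those not called held them in 10A. In DCIS these shares were 30.1% and 26.0%. Searched over their whole length, the 11 DCIS regions up from SMCP to SPRR2G held AP-1 matches in 2 and those up from S100A6 to S100A1 in 8 of 9. The former had a median width of 600 bp and the latter of 3800 bp, and longer regions hold more matches of any letters. A match is a string of letters and not a bound site.

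Promoters of the complex, as RefSeq gives them (GRCh38.p14, 250 bases before to 50 after the start), held the AP-1 letters in 10 of 57 genes found there, against 4.95% of all 35116 promoters. By group these were 5 of 8 SPRR promoters, 3 of 6 among IVL and the other envelope precursors, 2 of 14 among the inner S100 genes and 0 of 17 among LCE genes. None of the windows around the 5 SPRR matches was in a tested region of either line. Those of SPRR1A (chr1:152983962-152983991), SPRR3 (chr1:153001568-153001597) and SPRR1B (chr1:153031051-153031080) are shown beside the IVL match nearest its start, printed above, because AP-1 is a known activator of these genes. All 3 are on the plus strand, with the distance to the RefSeq start.
SPRR1A promoter, 108 bp upstream: ggatggtagtgTGAGTCAtgtgtgacaggt
SPRR3 promoter, 170 bp upstream: agggtggacagTGAGTCAggcccaggtgac
SPRR1B promoter, 141 bp upstream: atcacaaaagtTGAGTCAacaggtgggtga

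Genes of the same programme on other chromosomes were counted by the same rule. Of 15 further cornified envelope genes, such as the transglutaminases, 7 of the 9 with a region were up and 1 was down in 10A, and 6 of 10 were up and 1 down in DCIS. Of 18 regulators of keratinocyte differentiation, including the Jun and Fos genes, 11 of 16 were up in 10A and 0 down, and 7 of 17 were up and 2 down in DCIS. Of 4 receptors for S100 proteins, 3 of 3 were up in 10A and 1 of 3 in DCIS. Beside these stand the 72.7% of all protein-coding genes up in 10A and the 27% in DCIS.

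At the limits of the interval, the nearest tested regions outside were not called. The last before S100A10 had 0.44 (FDR 0.316) in 10A and 0.91 (FDR 0.292) in DCIS, and the first after S100A1, at the CHTOP promoter, had the values given above. Just inside, the first region was up in both lines (1.10 and 1.33), and the last was up in 10A (1.43) and not called in DCIS (-0.36, FDR 0.849).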

How the data were processed

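H3K27ac ChIP-seq was measured in 24 libraries, 3 in each of 8 groups. The methods name BWA and Rsubread for alignment to GRCh38, samtools for duplicate removal and csaw for the tests of binding. The authors deposited 6 tables of regions, none with library values, which hold the log2 fold change of 1 representative window, the p-value and FDR of the region over all regions of that table, and numbers of windows. Normalization, prior count, window filter and merging distance are not given in the sources used here, nor which inputs were used. Unstated scaling can move all values of a table together. These columns are the authors' own comparisons and were used because the tables hold nothing else.

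Regions on chromosome 1 overlapping the interval by 1 bp were taken with Python 3.11.15 and pandas 2.3.3, and called at a deposited FDR under 0.05 in the deposited direction. GENCODE release 44 gave gene positions, and in each of 7 regions upstream of IVL the deposited distance equalled the GENCODE one. Every listed gene with a tested region over its body or the 5 kb upstream was represented by its region with the lowest FDR. Called genes, up to 3 uncalled ones at each extreme, and the 5 largest regions per line at 5 or more windows were named. The overlap and pairing code was tested on simulated regions. Members and lists were chosen with earlier results of these data known.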

Additional observations from a re-analysis of the deposited data

How the results depend on the processing

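No paired analysis was possible because the deposited tables hold no value per library, and for the same reason no replicate could be left out. When a log2 fold change of 1 or more was also required, 16 of 52 regions were up in 10A (30.8%), where 25.7% of all were. At least 1 log2 unit above the table's median, 0 were up in 10A, where 1.14% of all were, and 19 in DCIS, where 16.3% were. Relative to that median, the medians of the complex moved to 0.027 in 10A and 0.56 in DCIS. From TCHHL1 to S100A7 alone, 7 of 24 regions were up in 10A (29.2%, below the 43.6% of all) and 14 of 23 in DCIS (60.9%, above 23.6%). Among regions overlapping one enriched over input, an alternative chosen after seeing the data, 19 of 27 were up in DCIS (25.4% of all such). With at least 5 windows, enriched regions fell to 20 (10A shANCO1), 10 (10A shCTRL), 17 (DCIS shANCO1) and 15 (DCIS shCTRL), and an FDR under 1e-10 left 14 in 10A shCTRL. By the deposited gene symbols, 19 of the 27 genes with a region were up in DCIS, a count that was not made over all genes. Nearest the TSS, S100A5 in 10A (0.79) and S100A11 in DCIS (0.51) were no longer called, and 2 uncalled DCIS values turned from negative to positive, S100A3 (-1.04 to 0.90) and CHTOP (-1.47 to 0.40), because another region then stands for the gene. The other 51 counts and medians stayed within 1.5 times for counts or within the 95% order-statistic interval for medians. Among these 51 are the counts of regions down, which were 0 at every setting. A setting that only drops regions could not change a count of 0, so these do not show stability. The cause of the shifts given above was not tested, beyond fewer regions being counted. Read depth was not known, so what it limits could not be given.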

Other observations

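A promoter and exon region of FLG-AS1 was the place between TCHHL1 and CRNN that was marked in 3 of the 4 groups, with 4.77 over input in 10A shANCO1 cells, 2.85 in 10A shCTRL cells and 3.71 in DCIS shANCO1 cells on the log2 scale. In 10A shANCO1 cells, but in no other group, the region past CRCT1 was enriched over input, with 5.15 and 2.29 at 2 places. The intergenic site 24491 bp beyond S100A6 was enriched in all 4 groups and reached 7.64 in DCIS shANCO1 cells against 3.62 in DCIS shCTRL cells, yet the regions tested between hairpins there had 0.31 (FDR 0.914) in DCIS and -0.02 (FDR 0.967) in 10A. The tables over input and between hairpins were made separately and share the shANCO1 libraries.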
